A study of Homo sapiens with 12 samples.

Results

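The 5820 genes described here are those whose response to morusinol could be compared between 2 established human lymphoma lines, SU-DHL-8 and Farage. They were chosen on the untreated level alone, as genes with a mean of at least 5 FPKM in the control libraries of both lines. FPKM counts the sequenced fragments of a gene per kilobase of its length and relative to all fragments of the library. The table held 61466 genes, of which 17574 were tested because they reached 1 FPKM in at least 3 libraries, and all 5820 were among the tested genes. The response of a gene was its mean with morusinol minus its mean in the control, on the log2(FPKM + 1) scale, where 1 unit is a 2-fold change and low values are compressed. The difference between the lines was the response in Farage minus that in SU-DHL-8, so a positive value marks a response that was more upward in Farage.

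Both lines come from diffuse large B cell lymphoma, an aggressive tumour of mature B cells, with lymph node as the labelled tissue and wild type as the labelled genotype of the controls. Farage cells carry Epstein-Barr virus. Morusinol is a prenylated flavonoid of mulberry root bark. There were 4 groups, SU-DHL-8 control, SU-DHL-8 with morusinol, Farage control and Farage with morusinol, each of 3 libraries from cells exposed for 12 h to vehicle or compound. No dose is stated in the labels. In bulk RNA, fewer cells of a type and less RNA per cell cannot be told apart. Nothing in the labels says that the 3 libraries of a group came from separate cultures, so p-values measure only the spread between these libraries, which may be technical.

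Cells short of amino acids, or with unfolded protein in the endoplasmic reticulum (ER), slow translation and make the transcription factor ATF4, which turns on amino acid transporters, amino acid synthesis and tRNA charging. Unfolded protein in the ER also activates XBP1 and ATF6, which raise ER chaperones and the machinery that exports damaged proteins for degradation. Dividing cells make the genes of mitosis late in the cell cycle and those of DNA replication earlier, so both fall when a culture stops cycling.

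FPKM is a relative unit, and its composition moved with treatment. Protein-coding genes held 55.6 to 60.3% of the summed FPKM in the SU-DHL-8 controls and 49.3 to 51.5% after morusinol, against 56.1 to 60.4% and 54.8 to 57.7% in Farage. A few structural RNAs (7SL, 7SK, RMRP and RPPH1) held 19.9 to 31.5% in the 12 libraries. Judged by the spacing of low FPKM values, treated libraries were mostly shallower than controls. Every Farage library with morusinol was shallower than every Farage control. SU-DHL-8 morusinol replicates 1 and 2 were shallower than all SU-DHL-8 controls, replicate 2 being the shallowest of all libraries, while replicate 3 lay within the control range. The part of depth in the results was not tested. All 8 B cell markers, among them CD79A and CD74, were at 1 FPKM or more in every group. The 12 T and NK cell markers summed to 2.47 to 4.35 FPKM in SU-DHL-8 and to 45.6 to 80.4 FPKM in Farage. There a single gene, TRAC, gave nearly all of it, with a mean of 70.0 FPKM in the controls. Myeloid markers summed to at most 1.92 FPKM and stromal and epithelial markers to at most 2.95 FPKM, and no gene of these 3 marker lists is among the 5820. The part of the TRAC level in the results was not tested, and composition is addressed only by the rescalings given with them.

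Of the 5820 genes, 2892 changed in both lines, mostly in the same direction but often by sizes that differed. In SU-DHL-8, 4120 genes (70.8%) changed, 1486 up and 2634 down. Of all tested genes 46.8% were called there, and more rose (4414, 25.1%) than fell (3802, 21.6%). A level asked of the controls leaves out genes that rise from a low control, which can itself tilt the balance towards falls. How far it did so was not tested. In Farage, 3716 (63.8%) changed, 1660 up and 2056 down. Against this, 43.1% of all tested genes changed in Farage, 3848 up (21.9%) and 3719 down (21.2%). The difference between the lines passed the test for 2837 (48.7%), against a background of 34.9%. These calls are from limma with Benjamini-Hochberg adjusted p under 0.05 over the 17574 tested genes. Over all tested genes the called differences were about evenly split, 3038 more upward in Farage (17.3%) and 3088 more upward in SU-DHL-8 (17.6%). Counts in the gene lists below are to be read beside these shares. Among the called differences of the 5820 genes, 1802 were more upward in Farage and 1035 more upward in SU-DHL-8, 63.5% against the rest. This lean was thus seen at this control level and not over all tested genes. Their split also depends on the scaling: it was 78.2% Farage-higher after rescaling every library to TPM and 51.6% after scaling by the median ratio over these genes. The median response of the 5820 genes in SU-DHL-8 was -0.14 as deposited, -0.25 in TPM and -0.00 with median-ratio scaling, and the median difference was 0.08, 0.20 and -0.00. Differences of at least 2-fold were called for 180 genes that were more upward in Farage and for 73 that were more upward in SU-DHL-8.

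The genes were sorted by how the 2 responses compared. Of 2892 genes called in both lines, 2450 (84.7%) had the same sign and 442 had opposite signs, and the difference passed the test for all 442. Moving in opposite ways therefore described 7.59% of the 5820 genes, against 4.26% of all tested genes. In 303 the gene rose in Farage and fell in SU-DHL-8 (5.21%, background 2.55%), and in 139 it rose in SU-DHL-8 and fell in Farage (2.39%, background 1.71%). Moving alike meant a call in both lines in 1 direction with the 95% confidence interval of the difference inside ± 0.5 on the log2 scale, which is 1.41-fold. It described 1547 genes (26.6%, background 12.6%), of which 537 rose (9.23%, background 5.96%) and 1010 fell (17.4%, background 6.66%). Of these genes, 285 also had a called difference. A called difference between 2 responses of the same sign was found for 1022 genes (background 8.81%), these 285 among them. Another 1304 changed in 1 line while the interval of the other line stayed inside ± 0.5 (background 18.1%).

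**Figure D1:**
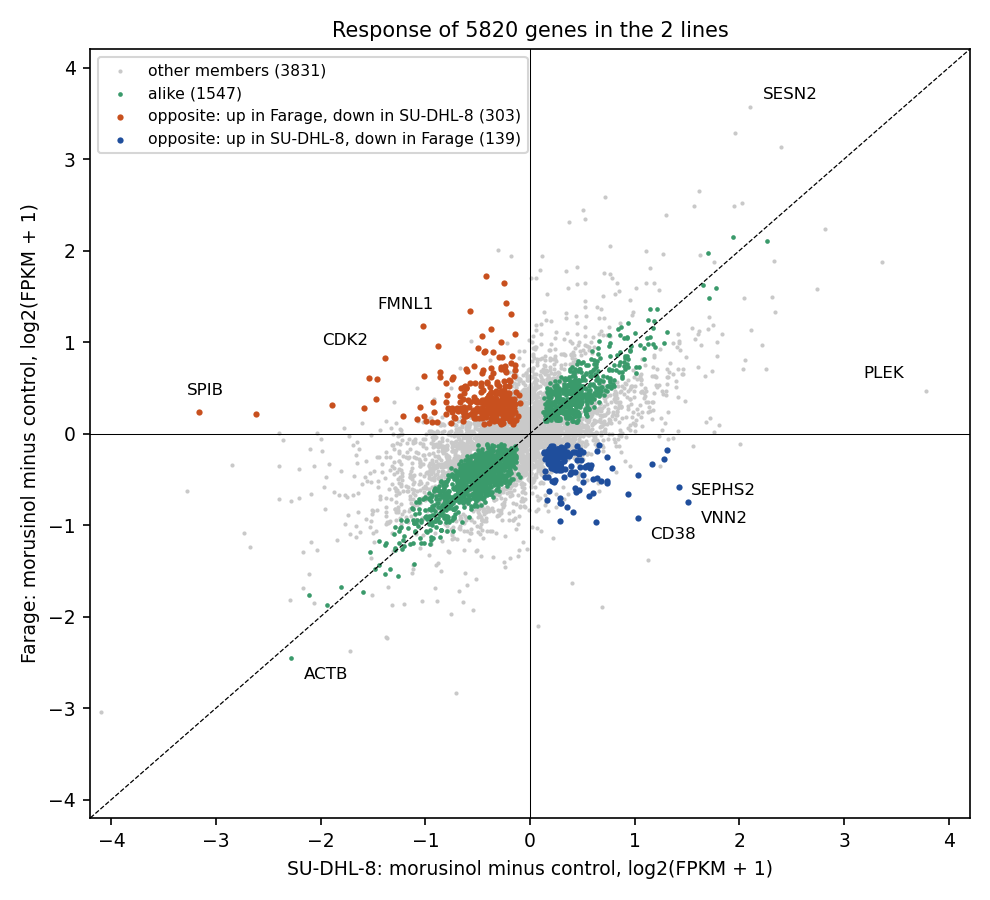
Response of each of the 5820 genes in SU-DHL-8 (horizontal axis) and Farage (vertical axis), both as morusinol minus control on log2(FPKM + 1), with the line of equal response dashed. The 303 and 139 genes that moved in opposite ways fill the upper left and lower right of the plot, mostly close to the origin, and the 1547 that moved alike follow the dashed line.

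Across the 5820 genes the responses of the lines were related, with Pearson's r of 0.61 and Spearman's rho of 0.60. This describes genes, which are not independent replicates and share the same libraries. Opposite movement was mostly small: the median of the smaller of the 2 responses was 0.25, only 12 of the 303 and 5 of the 139 reached 1.5-fold in both lines, and 1 (FMNL1) reached 2-fold in both. In 424 of the 442 the treated and control libraries did not overlap in either line. This follows largely from the calls, which used the same libraries, and has no share over all tested genes beside it. The gap between the lines was wider after morusinol in 270 of the 442 and narrower in 172. Small opposite responses are sensitive to scaling: 313 of the 442 were still opposite in TPM, 329 after scaling to protein-coding genes and 284 with median-ratio scaling, where 7 turned to the same sign. All but 1 of the 17 largest were opposite in every alternative tried. The exception was a gene without a symbol in the table. The genes with a symbol nearest above the level of 5 FPKM were EIF2B2 (difference -0.08 ± 0.0809 SE), BCKDK (0.50 ± 0.142) and ORMDL2 (0.39 ± 0.118). Nearest under it were RIDA (-0.27 ± 0.204), PTGES3P3 (0.10 ± 0.322) and AVL9 (0.20 ± 0.106). They do not describe all genes near that level, since PLEK, given below, began near it in SU-DHL-8 and had a large difference.

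The largest opposite movements with a rise in Farage included genes of stress transcription, the cell cycle and the cytoskeleton. ATF5, a transcription factor of the ATF4 family made in stressed cells (chromosome 19, 49928702 to 49933935, GRCh38 in GENCODE 29), stood at 200, 193 and 211 FPKM in SU-DHL-8 controls and at 108, 111 and 108 FPKM with morusinol. In Farage its level went from 111, 98.8 and 105 FPKM to 213, 201 and 203 FPKM. Within each line every treated library lay outside the control range, and the treated SU-DHL-8 level came to lie where the untreated Farage level had been. ATF5 fell by 0.88 ± 0.0484 (SE) in SU-DHL-8 and rose by 0.96 ± 0.0484 in Farage, a difference of 1.84 ± 0.0685 (limma, adjusted p = 1.0e-07). ATF5 overlaps IL4I1 and NUP62 on the other strand, and whether counting used the strand is not stated in the labels.

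CDK2, the cyclin-dependent kinase that starts DNA replication (chromosome 12, 55966769 to 55972784), was at 30.9, 31.3 and 30.6 FPKM in SU-DHL-8 controls and at 10.3, 11.8 and 11.4 FPKM with morusinol. The Farage libraries went from 20.9, 20.9 and 21.4 FPKM to 40.3, 37.8 and 36.6 FPKM. The order of the lines was thus exchanged, SU-DHL-8 being the higher before and Farage the higher after treatment. CDK2 fell by 1.39 ± 0.0505 in SU-DHL-8 and rose by 0.83 ± 0.0505 in Farage, with a difference of 2.22 ± 0.0714 (limma, adjusted p = 3.8e-08). FMNL1, a formin that builds actin filaments in blood cells (chromosome 17, 45221444 to 45247320), went from 7.53, 6.53 and 7.30 FPKM to 3.17, 3.06 and 2.78 FPKM in SU-DHL-8. It went from 14.2, 13.3 and 12.9 FPKM to 34.6, 32.7 and 28.4 FPKM in Farage. All Farage libraries were above all SU-DHL-8 libraries from the start, and morusinol widened the distance. The difference was 2.20 ± 0.108 (limma, adjusted p = 3.8e-07), and FMNL1 overlaps its divergent transcript FMNL1-DT and EFCAB15P.

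**Figure D2:**
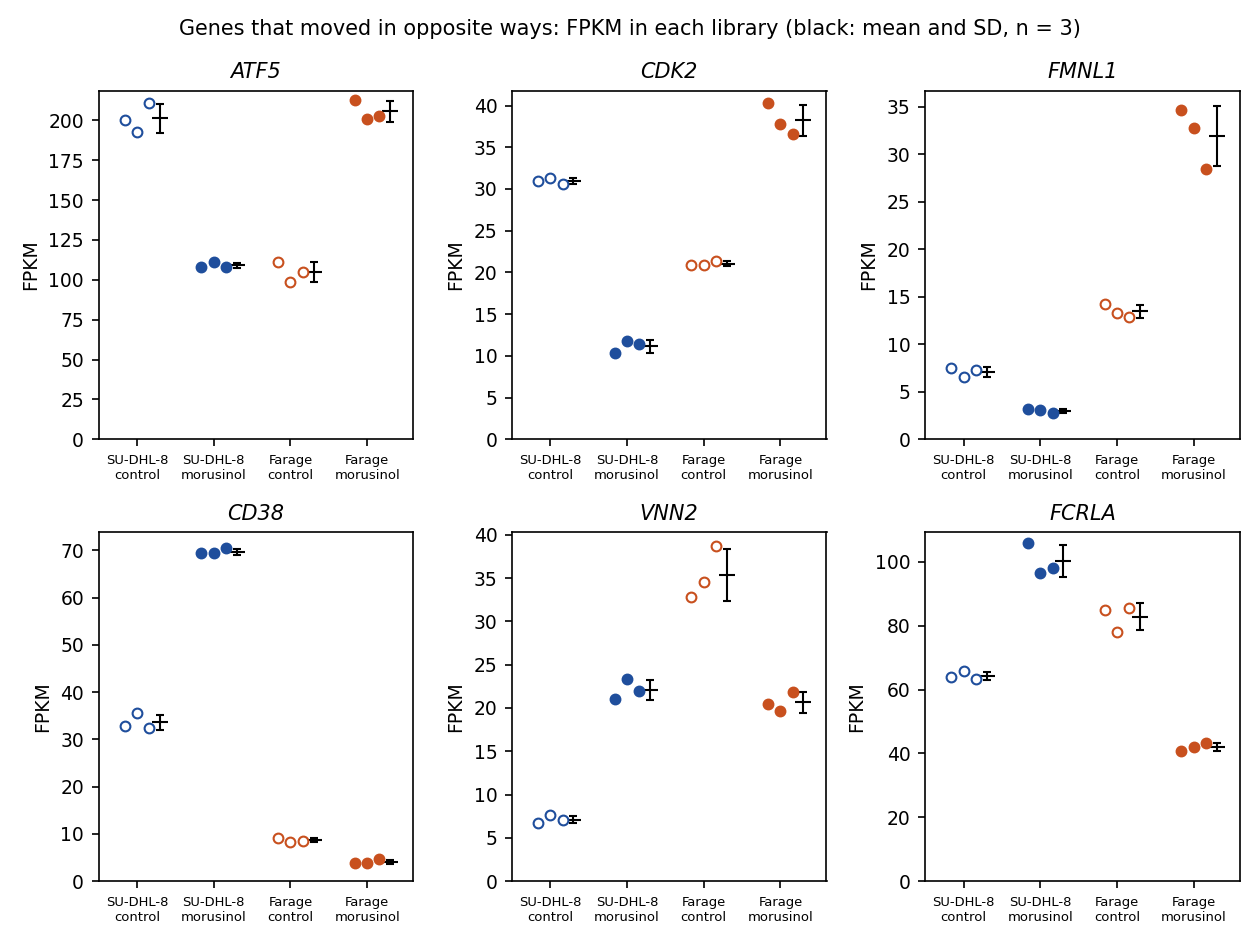
FPKM in each of the 12 libraries (vertical axes, from 0) for 6 genes that moved in opposite ways, by group, with open points for control and filled points for morusinol and with the mean and SD in black. ATF5, CDK2 and FMNL1 fell in SU-DHL-8 and rose in Farage, CD38, VNN2 and FCRLA did the reverse, and no treated library overlaps the controls of its own line.

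The other 9 of the 12 genes with a symbol and the largest opposite movement of this direction had differences of 1.28 to 2.15. NAB2, a repressor that binds EGR proteins, differed by 2.15 ± 0.188, with 7.61, 6.37 and 7.04 FPKM falling to 1.85, 1.30 and 2.16 in SU-DHL-8 and 21.8, 18.7 and 22.9 FPKM rising to 35.8, 35.2 and 27.8 in Farage. STS, the steroid sulfatase that releases steroids from their sulfates, differed by 2.06 ± 0.0728, from 6.16, 6.33 and 6.63 FPKM to 1.59, 1.80 and 1.65 in SU-DHL-8 and from 6.93, 7.37 and 7.02 FPKM to 11.7, 10.6 and 11.7 in Farage. STS thus began at nearly the same level in both lines and ended far apart, while NAB2 was the higher in Farage throughout. LRRC42 differed by 1.64, CDCA2, which brings protein phosphatase 1 to chromatin after mitosis, by 1.53, and HSPA1B, an inducible HSP70, by 1.48. MAP4K2, a kinase upstream of JNK, differed by 1.35, ZNFX1, a helicase that senses viral RNA, by 1.34, MAP1S, which links microtubules to autophagy, by 1.31 and CNP, a nucleotide phosphodiesterase, by 1.28. NAB2 overlaps STAT6, ZNFX1 overlaps DDX27 and ZFAS1, CNP overlaps DNAJC7, and HSPA1B is nearly identical to HSPA1A, so reads of these genes may be shared.

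SPIB, an ETS family factor of the B lineage, had the largest difference of the 442 genes that moved in opposite ways. It went from 12.0, 13.5 and 13.7 FPKM to 0.598, 0.559 and 0.562 FPKM in SU-DHL-8 and from 20.6, 17.8 and 17.9 FPKM to 22.3, 24.2 and 20.7 FPKM in Farage. The fall was steep and the rise slight, at -3.16 ± 0.0730 and 0.24 ± 0.0730, for a difference of 3.40 ± 0.103 (limma, adjusted p = 2.8e-08). It was no longer opposite in 4 of 20 alternatives, 3 of which each left out 1 Farage library (control replicate 2, control replicate 3 or morusinol replicate 2).

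Many genes of G2 and mitosis fell in SU-DHL-8 and rose in Farage. Of the 32 listed genes among the 5820, 28 fell and 1 rose in SU-DHL-8, while 6 fell and 17 rose in Farage. The difference was called for 30, all more upward in Farage, where 17.3% of all tested genes were called in that direction. The median response was -0.62 in SU-DHL-8 and 0.18 in Farage, beside -0.14 and -0.05 over the 5820 genes. Moving in opposite ways described 14 of the 32 (NDC80, AURKA, TPX2, ECT2, CENPA, CDC20, CENPF, TOP2A, KIF23, KIF11, BUB1B, PLK1, BUB1 and AURKB), and 9 of the 14 were opposite in each of the 20 alternatives. The group kept its direction in each rescaling: 31 were called more upward in Farage in TPM, 30 after scaling to protein-coding genes and 26 with median-ratio scaling, where 1 was called the other way.

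TPX2, which activates Aurora A on the spindle, stood at 162, 164 and 163 FPKM in SU-DHL-8 controls and at 106, 108 and 105 FPKM with morusinol. Its Farage libraries rose from 65.3, 62.9 and 58.7 FPKM to 84.7, 91.2 and 88.7 FPKM. The lines moved towards each other without meeting, and the difference was 1.11 ± 0.0591 (limma, adjusted p = 6.3e-07). BUB1B, a kinase-like protein of the spindle checkpoint, went from 36.2, 34.3 and 35.1 FPKM to 20.3, 19.4 and 19.9 FPKM in SU-DHL-8 and from 25.7, 27.3 and 26.5 FPKM to 34.9, 35.0 and 37.8 FPKM in Farage. Here the order of the lines was exchanged, with a difference of 1.21 ± 0.0575 (limma, adjusted p = 3.3e-07). PLK1, the kinase that drives entry into mitosis, went from 37.1, 37.4 and 38.5 FPKM to 19.8, 17.7 and 17.0 FPKM in SU-DHL-8 and from 25.5, 23.1 and 23.4 FPKM to 28.4, 27.7 and 26.8 FPKM in Farage. Its rise in Farage was small (0.19 ± 0.0558; limma, adjusted p = 0.0167) and it was no longer opposite in 3 of 20 alternatives, which left out Farage control replicate 2, control replicate 3 or morusinol replicate 1. AURKA, the Aurora A kinase, rose as little in Farage (0.19 ± 0.0556; limma, adjusted p = 0.0194) and was no longer opposite in 4 alternatives (TPM, and without Farage control replicate 2, morusinol replicate 2 or morusinol replicate 3), while it fell by 1.21 ± 0.0556 in SU-DHL-8. CCNB1, the cyclin of mitotic entry, fell in both lines, by 1.44 ± 0.0430 and by 0.26 ± 0.0430. UBE2C, which tags mitotic cyclins for destruction, fell from 247, 245 and 243 FPKM to 96.2, 102 and 93.3 FPKM in SU-DHL-8, whereas its Farage libraries overlapped, at 50.9, 45.0 and 50.2 FPKM against 53.8, 48.9 and 49.8 FPKM.

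Promoters of late cell cycle genes are known for a short element, the cell cycle homology region, bound by the complexes that repress these genes in resting cells. Its letters TTTGAA, searched on both strands of the 300 bases around the RefSeq start (250 before and 50 after), were in 17 of the 26 listed genes with a window (65.4%). They were in 15.4% of 27305 promoter windows and in 18.1% of the windows of genes that rose in Farage and fell in SU-DHL-8. For genes that rose alike and fell alike the shares were 9.84% and 10.4%. The CCAAT box, often found beside it, was in 19 of the 26 (73.1%) and in 35.7% of all windows. A match describes letters and not binding. Shown are the 200 bases that end at the start of 3 of the genes, from RefSeq on GRCh38.p14, in lower case with TTTGAA or its reverse complement in capitals. All 3 are on the plus strand, CDC20 at chr1:43358781-43358980, PLK1 at chr16:23678689-23678888 and CENPA at chr2:26785856-26786055. The match nearest to the start began 65 bases before it in CDC20, 29 in PLK1 and 18 in CENPA.
CDC20: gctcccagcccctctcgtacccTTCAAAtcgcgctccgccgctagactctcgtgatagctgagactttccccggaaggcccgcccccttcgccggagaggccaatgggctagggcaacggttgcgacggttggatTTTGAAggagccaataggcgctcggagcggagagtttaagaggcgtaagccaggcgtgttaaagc
PLK1: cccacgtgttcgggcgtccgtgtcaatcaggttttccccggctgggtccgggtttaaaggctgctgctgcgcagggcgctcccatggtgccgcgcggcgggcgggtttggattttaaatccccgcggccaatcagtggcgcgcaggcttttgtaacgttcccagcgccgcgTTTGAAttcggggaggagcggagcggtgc
CENPA: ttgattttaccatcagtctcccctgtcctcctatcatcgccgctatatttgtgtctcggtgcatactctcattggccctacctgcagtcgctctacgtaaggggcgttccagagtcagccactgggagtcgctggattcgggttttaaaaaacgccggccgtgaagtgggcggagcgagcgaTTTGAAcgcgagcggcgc
CDC20 encodes the activator of the anaphase-promoting complex and CENPA the histone that marks centromeres. CDC20 stood at 118, 112 and 117 FPKM in SU-DHL-8 controls and 71.1, 69.5 and 72.0 FPKM with morusinol, and at 67.3, 57.3 and 65.2 FPKM in Farage controls and 77.5, 79.0 and 74.0 FPKM with morusinol. CENPA, which overlaps SLC35F6 on the same strand, went from 22.7, 23.0 and 22.6 FPKM to 16.1, 14.7 and 13.9 FPKM in SU-DHL-8 and from 20.5, 19.9 and 20.2 FPKM to 24.9, 25.6 and 24.1 FPKM in Farage. In both genes the treated libraries of the 2 lines came out in the reverse order of the controls.

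Genes of DNA replication and G1/S fell in both lines, further in SU-DHL-8. Of 47 listed genes, 46 fell in SU-DHL-8 (background 21.6%) and 36 in Farage (background 21.2%), and 1 rose in Farage. The difference was called for 34, 33 of them more upward in Farage (background 17.3%). None moved in opposite ways and 14 fell alike. UHRF1, which copies DNA methylation at the fork, went from 115, 115 and 121 FPKM to 22.8, 20 and 21.2 FPKM in SU-DHL-8 and from 22.2, 20.3 and 19.6 FPKM to 12.0, 12.1 and 12.5 FPKM in Farage, a difference of 1.69 ± 0.0776. Both lines fell without overlap, and the 2 lines were much closer to each other after treatment. MCM6, a subunit of the replicative helicase, fell by 1.23 ± 0.0511 in SU-DHL-8, while in Farage it changed by 0.04 ± 0.0511 (limma, adjusted p = 0.573). Among the G1 regulators, RB1, the retinoblastoma protein, moved in opposite ways like CDK2, falling from 58.6, 63.3 and 54.5 FPKM to 39.7, 38.3 and 42.8 FPKM in SU-DHL-8 and rising from 6.6, 7.49 and 6.57 FPKM to 10.8, 9.74 and 11 FPKM in Farage. The lines therefore stayed in the same order with a narrower gap. CCND3, a cyclin of G1, fell by 1.97 ± 0.0712 in SU-DHL-8 and by 0.58 ± 0.0712 in Farage.

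Antioxidant genes were a second group with several opposite members. Of the 25 listed NRF2 targets and antioxidant enzymes, 18 fell and 4 rose in SU-DHL-8, and 11 fell and 10 rose in Farage. Differences were called for 15, 13 of them more upward in Farage (background 17.3%). GCLM, the regulatory subunit of glutathione synthesis, went from 12.4, 14.0 and 12.5 FPKM to 8.98, 10.4 and 10 FPKM in SU-DHL-8 and from 5.79, 6.51 and 7.12 FPKM to 15.5, 15.3 and 15.4 FPKM in Farage. The order of the lines was exchanged, with a difference of 1.5 ± 0.104 (limma, adjusted p = 3.1e-06). TXN, thioredoxin, fell from 230, 238 and 229 FPKM to 109, 109 and 110 FPKM in SU-DHL-8 and rose from 322, 339 and 350 FPKM to 383, 379 and 370 FPKM in Farage. GPX1, a glutathione peroxidase, and KEAP1, the sensor that holds NRF2 in check, also moved in opposite ways, by differences of 1.12 and 1.07. All 4 were opposite in each of the 20 alternatives, whereas GPX4, the peroxidase of membrane lipids, was so in 9, with responses of -0.18 in SU-DHL-8 and 0.77 in Farage. NQO1, a quinone reductase and a usual NRF2 target, fell from 58.8, 60.9 and 57.1 FPKM to 13.6, 12.6 and 12.8 FPKM in SU-DHL-8 and stayed low in Farage, at 4.87, 5.61 and 7.37 FPKM against 5.36, 5.30 and 4.71 FPKM.

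Single opposite genes of this direction were found in other lists. BCL2L1, which encodes the survival protein BCL-XL, went from 23.9, 24.0 and 24.8 FPKM to 20.3, 17.2 and 20 FPKM in SU-DHL-8 and from 17.4, 15.8 and 17.0 FPKM to 21.1, 22.9 and 21 FPKM in Farage. The order of the lines was exchanged by modest shifts, for a difference of 0.68 ± 0.0901. BLM, a helicase of homologous recombination, differed by 1.29 ± 0.0857. HIF1A, the hypoxia factor, and SLC2A1, the glucose transporter GLUT1, rose in Farage (0.59 and 0.44), with small falls in SU-DHL-8 (-0.20 and -0.24), and HIF1A was opposite in only 7 and SLC2A1 in 16 of 20 alternatives. BLK, a kinase of the B cell receptor, differed by 1.16 ± 0.0991, and NFATC3, a calcium-driven factor, by 0.63 ± 0.0582.

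In the reverse direction, genes that rose in SU-DHL-8 and fell in Farage included some surface and secretory genes of B cells and plasma cells. These lists did not move as a whole: 4 listed plasma cell genes rose in SU-DHL-8, and in Farage 2 rose and 2 fell. Of 8 B cell markers, 3 moved in this direction, 1 moved in the opposite ways described before, and 5 fell in SU-DHL-8. CD38, an ectoenzyme that marks germinal centre and plasma cells (chromosome 4, 15778275 to 15853230), stood at 32.8, 35.5 and 32.5 FPKM in SU-DHL-8 controls and at 69.4, 69.4 and 70.5 FPKM with morusinol. In Farage it went from 9.08, 8.37 and 8.4 FPKM to 3.82, 3.81 and 4.61 FPKM. SU-DHL-8 was the higher line throughout and the distance grew, with responses of 1.03 ± 0.0620 and -0.92 ± 0.0620 and a difference of -1.96 ± 0.0877 (limma, adjusted p = 2.7e-07). FCRLA, an intracellular Fc receptor-like protein of germinal centre B cells (chromosome 1, 161706972 to 161714352), went from 63.8, 65.8 and 63.2 FPKM to 106, 96.6 and 98.1 FPKM in SU-DHL-8 and from 84.9, 78.0 and 85.6 FPKM to 40.6, 41.9 and 43.1 FPKM in Farage. Here the order was exchanged, with a difference of -1.60 ± 0.0666 (limma, adjusted p = 1.9e-07).

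VNN2, a pantetheinase anchored at the cell surface (chromosome 6, 132743870 to 132763459), rose from 6.74, 7.58 and 7.01 FPKM to 21, 23.3 and 22 FPKM in SU-DHL-8 and fell from 32.8, 34.6 and 38.7 FPKM to 20.4, 19.6 and 21.9 FPKM in Farage. The 2 lines, far apart in the controls, overlapped after treatment, and the difference was -2.26 ± 0.0966 (limma, adjusted p = 2.0e-07). SEPHS2, which makes the selenium donor for selenoproteins, went from 40.6, 37.2 and 35.4 FPKM to 102 FPKM in each treated SU-DHL-8 library and from 68.2, 64.4 and 76.2 FPKM to 47.7, 49.3 and 41.5 FPKM in Farage. Its order was exchanged as well, with a difference of -2.00 ± 0.109 (limma, adjusted p = 7.1e-07). MZB1, an ER cochaperone of antibody-secreting cells, rose from 95, 92.8 and 98.4 FPKM to 241, 232 and 228 FPKM in SU-DHL-8 and fell slightly in Farage, from 41.6, 35.9 and 40.0 FPKM to 33.3, 32.8 and 30.3 FPKM. It was opposite in each of the 20 alternatives, with a difference of -1.56 ± 0.0796.

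RUBCNL, which promotes autophagosome maturation, differed by -1.60 and KLHL42, a ubiquitin ligase adaptor, by -1.27. PI4K2B, a phosphatidylinositol kinase, differed by -1.25, BTG2, an antiproliferative p53 target, by -1.20, C11orf24 by -1.10 and COA5, which helps assemble cytochrome oxidase, by -1.05. The remaining 2 of the 12 were small nucleolar RNAs, whose FPKM are less certain. SNORA80B, inside ODC1, differed by -1.24 and was opposite in only 8 of 20 alternatives. SNORD3C, which has near-identical copies, differed by -1.13. EGR1, an immediate early factor, rose from 14.3, 14.0 and 18.1 FPKM to 33.0, 30.2 and 34.5 FPKM in SU-DHL-8 and fell from 10.5, 9.16 and 8.75 FPKM to 7.28, 5.72 and 7.02 FPKM in Farage. NAB2, the repressor of EGR proteins given earlier, moved against EGR1 in both lines.

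The genes of antigen presentation through MHC class II that reached the control level split in the same direction. The list held 13 tested genes, and only 5 of them reached that level, so the list as a whole is not described. Of these 5 genes, 4 rose in SU-DHL-8 and 4 fell in Farage. All 5 were called more upward in SU-DHL-8 (background 17.6%). CD74, the invariant chain that chaperones class II molecules, went from 305, 283 and 326 FPKM to 405, 352 and 373 FPKM in SU-DHL-8 and from 135, 116 and 116 FPKM to 94.2, 94.6 and 88.8 FPKM in Farage, a difference of -0.70 ± 0.106. HLA-DMA, which loads peptides onto class II, went from 17.9, 17.2 and 17.4 FPKM to 23.0, 20.6 and 21.3 FPKM in SU-DHL-8 and from 36.2, 34.5 and 37.3 FPKM to 21.4, 20.7 and 23.1 FPKM in Farage. The treated Farage libraries overlapped the treated SU-DHL-8 range. CIITA, the master regulator of class II genes, rose by 0.70 ± 0.0643 in SU-DHL-8, and its change in Farage was -0.15 ± 0.0643 (limma, adjusted p = 0.0778). CD74, HLA-DMA and HLA-DMB were opposite in 19 of 20 alternatives, the exception being TPM. In TPM none of the 5 genes was opposite and 4 differences were called. HLA-DPA1 fell in Farage with its SU-DHL-8 interval inside the bound, but kept this class in only 3 of 20 alternatives.

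Genes of B cell receptor signalling had no common direction. Of 26 listed genes, 10 differences were more upward in Farage (background 17.3%), 9 more upward in SU-DHL-8 (background 17.6%) and 7 not called. CD79A and CD79B, the signalling chains of the receptor, parted: CD79A fell from 179, 169 and 178 FPKM to 46.3, 41.7 and 41.0 FPKM in SU-DHL-8 and overlapped in Farage at 405, 363 and 407 FPKM against 396, 384 and 350 FPKM. CD79B rose in SU-DHL-8 from 72.6, 69.3 and 73.1 FPKM to 92.4, 91.3 and 91.3 FPKM and fell in Farage from 21.2, 19.3 and 23.5 FPKM to 14.2, 11.5 and 10 FPKM. The differences were 1.95 ± 0.0912 for CD79A and -1.15 ± 0.145 for CD79B, so in SU-DHL-8 the chains of 1 complex moved in opposite directions. BTK, the kinase downstream of the receptor, moved like CD79B, with a difference of -1.24 ± 0.0760. MS4A1, which encodes CD20, fell in both lines, from 17.4, 18.9 and 15 FPKM to 11.5, 10.7 and 11.8 FPKM in SU-DHL-8 and from 332, 366 and 371 FPKM to 86.6, 90.7 and 101 FPKM in Farage.

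Cytosolic ribosomal protein genes differed in nearly every case, by small amounts. Of 50 listed genes, 46 rose (background 25.1%) and none fell in SU-DHL-8, while in Farage 2 rose (background 21.9%) and 14 fell (background 21.2%). The difference was called for 44, all more upward in SU-DHL-8 (background 17.6%), and 11 rose in SU-DHL-8 and fell in Farage (background 1.71%). The medians were 0.30 in SU-DHL-8 and -0.06 in Farage. The Farage median turned to 0.01 after scaling to protein-coding genes and -0.00 with median-ratio scaling. In TPM the SU-DHL-8 median was 0.20, 22 differences were called and 3 genes were opposite. RPL37 went from 61.4, 58.6 and 64.2 FPKM to 75.6, 74.3 and 75.1 FPKM in SU-DHL-8 and from 61.1, 62.8 and 67.0 FPKM to 50.8, 46.0 and 50.2 FPKM in Farage. Nearly equal in the controls, the lines were apart after treatment by -0.66 ± 0.0705 (limma, adjusted p = 6.0e-05), and RPL37, RPL30 and RPS23 were opposite in each of the 20 alternatives. Ribosomal protein genes have many processed pseudogenes, and the labels do not state how shared reads were counted. In the list of small nucleolar RNA hosts and structural RNA genes, 13 of 15 were more upward in SU-DHL-8 (background 17.6%). The median difference was -0.57, and 9 were more upward in SU-DHL-8 in TPM. SNHG1, one of the hosts, rose there by 1.29 ± 0.0625 and changed by 0.11 ± 0.0625 in Farage (limma, adjusted p = 0.190).

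**Figure D3:**
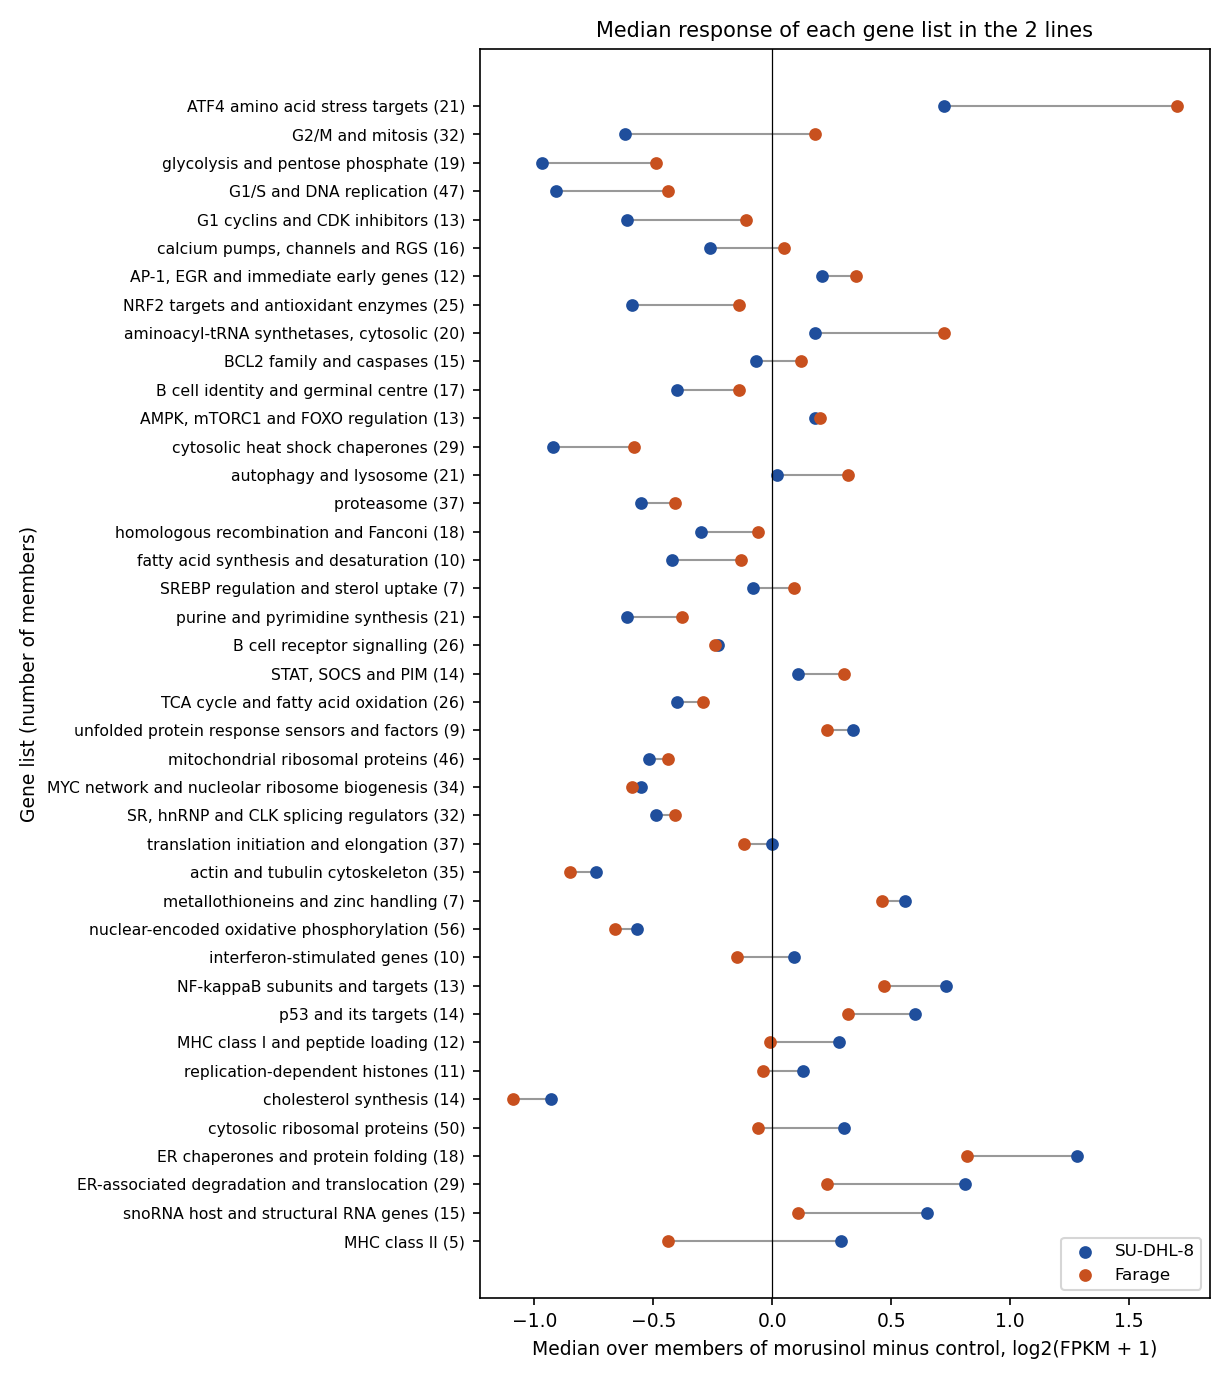
Median response (horizontal axis, log2(FPKM + 1)) in SU-DHL-8 and Farage of each gene list with at least 5 of the 5820 genes, ordered by the median difference, with the number of genes in brackets. The ATF4 list (0.72 and 1.70) and the G2/M list (-0.62 and 0.18) stand at the top and the MHC class II list (0.29 and -0.44) at the bottom, while oxidative phosphorylation (-0.57 and -0.66) and nucleolar genes (-0.55 and -0.59) lie close together.

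The largest common rises included genes of protein quality control, amino acid transport and tRNA charging. By at least 2-fold in both lines, 14 genes rose alike and 36 fell alike. SEL1L, the adaptor of the ER ubiquitin ligase that removes misfolded proteins, rose from 15.8, 17.4 and 15.1 FPKM to 57.7, 56.8 and 58.6 FPKM in SU-DHL-8 and from 23.5, 23.1 and 23.5 FPKM to 69.9, 71.1 and 76.6 FPKM in Farage. The rises were 1.78 ± 0.0511 and 1.59 ± 0.0511, with a difference of -0.19 ± 0.0723 (limma, adjusted p = 0.0653). SLC43A1, a transporter of large neutral amino acids, rose from 7.29, 7.15 and 8.49 FPKM to 40.4, 38.3 and 41.9 FPKM in SU-DHL-8 and from 5.36, 5.68 and 5.77 FPKM to 29.5, 27.3 and 25.2 FPKM in Farage. In both genes every treated library was above every control library of either line.

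WARS1, which charges tRNA with tryptophan, rose by 1.94 and 2.15, and NFE2L1, the factor that restores proteasome genes, by 1.70 and 1.97. Both had small called differences (0.21 and 0.28; limma, adjusted p = 0.0130 and 0.0228) inside the bound. HSPA13, an ATPase of microsomes, rose by 1.65 and 1.62, BTG1, an antiproliferative factor, by 1.71 and 1.48, and NFKB2, the precursor of the p52 subunit of NF-kappaB, by 1.21 and 1.36. RTN3, a reticulon that shapes and recycles ER tubules, rose from 30.5, 32.4 and 29.8 FPKM to 71.0, 69.9 and 72.0 FPKM in SU-DHL-8 and from 10.7, 11 and 10.5 FPKM to 25.8, 27.1 and 26.4 FPKM in Farage. The lines kept their untreated order and the difference was 0.05 ± 0.0532 (limma, adjusted p = 0.501).

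The largest common falls included actin and mitochondrial folding genes. ACTB, beta-actin, went from 927, 918 and 937 FPKM to 203, 183 and 186 FPKM in SU-DHL-8 and from 2478, 2303 and 2347 FPKM to 436, 440 and 428 FPKM in Farage. It was the higher in Farage before and after, and the falls of -2.28 ± 0.0440 and -2.45 ± 0.0440 differed by -0.17 ± 0.0622 (limma, adjusted p = 0.0593). HSPE1, the mitochondrial cochaperone HSP10, fell from 67.1, 72.6 and 70.7 FPKM to 16.6, 16.3 and 20 FPKM in SU-DHL-8 and from 51.2, 57.0 and 58.9 FPKM to 13.7, 14.9 and 14.9 FPKM in Farage. It overlaps HSPD1 on the other strand. ATP5MC1, a subunit of the rotor of ATP synthase, fell by 1.44 in both lines, from 45.1, 41.6 and 39.7 FPKM to 14.3, 15.7 and 14.5 FPKM and from 33.9, 31.2 and 37.9 FPKM to 12.8, 11.4 and 12.0 FPKM. These 3 genes fell without overlap in both lines, and ACTB has many processed pseudogenes that may share its reads.

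Other large common falls were HSPA8, the constitutive HSP70 (-2.11 and -1.76, with a called difference of 0.36 and alike in only 9 of 20 alternatives), BRI3BP (-1.81 and -1.68), the actin binders CNN2 (-1.60 and -1.73) and COTL1 (-1.48 and -1.48) and NME1, a nucleoside diphosphate kinase (-1.39 and -1.53). Of the 35 listed actin and tubulin genes, 31 fell in each line and 12 fell alike. The difference of COTL1, 0.01, became -0.33 with a pseudocount of 5. Among those that did not fall alike, STMN1, which destabilises microtubules, fell by 1.43 ± 0.0444 in SU-DHL-8 and changed by 0.04 in Farage (limma, adjusted p = 0.535).

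**Figure D4:**
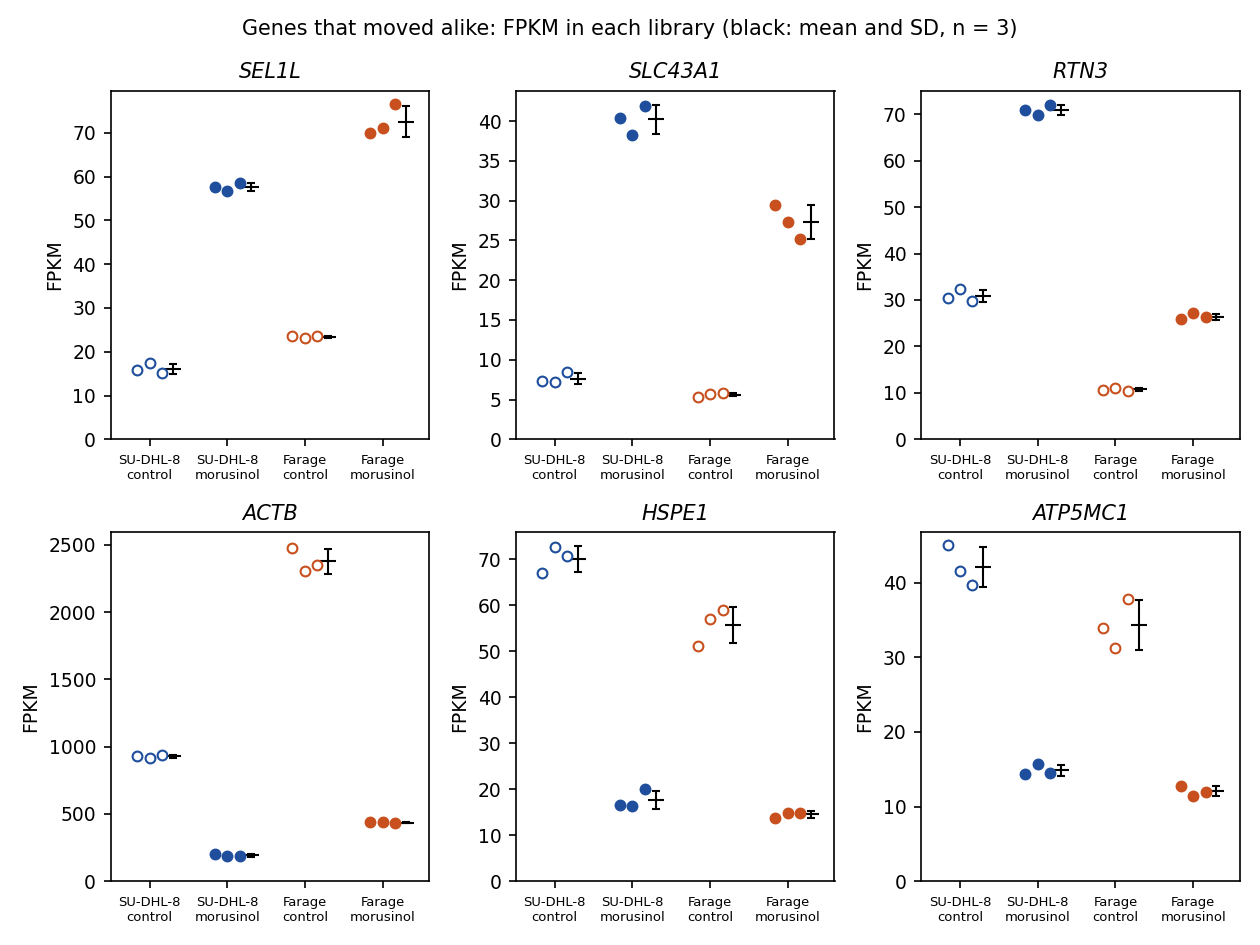
FPKM in each of the 12 libraries (vertical axes, from 0) for 6 genes that moved alike, by group, with open points for control and filled points for morusinol and with the mean and SD in black. SEL1L, SLC43A1 and RTN3 rose and ACTB, HSPE1 and ATP5MC1 fell in both lines without overlap of treated and control libraries.

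Many listed genes of energy metabolism, ribosome making and RNA processing fell in both lines. Of 56 nuclear genes of oxidative phosphorylation, 49 fell in SU-DHL-8 and 53 in Farage, and 34 fell alike, where 6.66% of all tested genes did. The medians were -0.57 and -0.66, and the median difference of -0.11 became 0.00 in TPM. NDUFB8, of complex I, which overlaps HIF1AN, was the 1 opposite gene, with 8.67, 7.06 and 8.93 FPKM rising to 11.3, 11.2 and 11.8 FPKM in SU-DHL-8 and 11.6, 9.77 and 9.74 FPKM falling to 7.08, 7.90 and 7.36 FPKM in Farage. Of 34 genes of the MYC network and nucleolar ribosome assembly, 28 fell in SU-DHL-8, 31 in Farage and 22 alike, with medians of -0.55 and -0.59. MYC itself rose in SU-DHL-8 (0.46) and its change in Farage was -0.12 (limma, adjusted p = 0.224), a difference of -0.59 ± 0.108 (limma, adjusted p = 0.00190).

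Mitochondrial ribosomal proteins fell alike in 23 of 46 genes and splicing regulators in 19 of 32. Genes of the citric acid cycle and fatty acid oxidation did so in 14 of 26. Of all tested genes 6.66% fell alike, 21.6% fell in SU-DHL-8 and 21.2% fell in Farage. Of 37 proteasome subunits 35 fell in SU-DHL-8 and 30 in Farage, none rose, and 23 fell alike. PSMB8, an immunoproteasome subunit whose gene overlaps PSMB9 on the other strand, went from 24.4, 23.3 and 22.1 FPKM to 13.7, 15.1 and 15.7 FPKM in SU-DHL-8 and from 19.9, 19.9 and 21.5 FPKM to 5.53, 7.59 and 6.37 FPKM in Farage. It was an exception in falling further in Farage, by a difference of -0.91 ± 0.128. Of 21 genes of purine and pyrimidine synthesis, 19 fell in SU-DHL-8, 18 in Farage and 12 alike.

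Targets of ATF4 rose in both lines and further in Farage. Of 21 listed genes, 17 rose in SU-DHL-8 (background 25.1%) and 20 in Farage (background 21.9%). The difference was called for 20, 19 of them more upward in Farage (background 17.3%). The medians were 0.72 and 1.70, and 18 or 19 genes were called more upward in Farage under each rescaling. PSAT1, an enzyme of serine synthesis, went from 46.9, 51.8 and 47.1 FPKM to 68.0, 69.3 and 70.8 FPKM in SU-DHL-8 and from 43.2, 42.1 and 44.9 FPKM to 241, 233 and 246 FPKM in Farage. SESN2, a sestrin that reports leucine shortage to mTORC1, went from 8.53, 6.52 and 7.20 FPKM to 36.7, 34.1 and 33.8 FPKM in SU-DHL-8 and from 6.61, 6.74 and 6.72 FPKM to 94.4, 90.8 and 86.2 FPKM in Farage. Both began at like levels in the lines, and after treatment all Farage libraries were the higher. Their differences were 1.94 ± 0.0625 and 1.48 ± 0.107 (limma, adjusted p = 3.8e-08 and 4.3e-06).

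The amino acid transporters of this list were among the genes more upward in Farage. SLC3A2, the heavy chain of the large neutral amino acid transporter, rose from 66.8, 66.0 and 67.8 FPKM to 114, 110 and 110 FPKM in SU-DHL-8 and from 32.5, 30.5 and 32.0 FPKM to 208, 201 and 178 FPKM in Farage. SLC7A5, its light chain LAT1, rose from 56.8, 50.2 and 51.6 FPKM to 152, 142 and 140 FPKM in Farage and fell from 136, 132 and 150 FPKM to 122, 116 and 119 FPKM in SU-DHL-8. The fall (-0.23 ± 0.0587) was small and not called after scaling to protein-coding genes or by the median ratio. SLC1A5, a glutamine transporter, rose by 1.70 ± 0.0680 in Farage and changed by 0.01 ± 0.0680 in SU-DHL-8 (limma, adjusted p = 0.915). EIF4EBP1, a brake on translation that ATF4 induces, rose by 0.52 in SU-DHL-8 and 2.35 in Farage, and DDIT4, an inhibitor of mTORC1, by 0.34 and 1.78.

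Of the 20 listed cytosolic aminoacyl-tRNA synthetases, 12 rose in SU-DHL-8 (background 25.1%) and 13 in Farage (background 21.9%). More upward in Farage were 11 (background 17.3%), against 2 in SU-DHL-8 (background 17.6%). SARS1, for serine, rose from 60.0, 59.8 and 62.3 FPKM to 88.5, 90.1 and 84.3 FPKM in SU-DHL-8 and from 34.6, 30.2 and 34.1 FPKM to 106, 110 and 98.7 FPKM in Farage, a difference of 1.12 ± 0.0799. MARS1, for methionine, overlaps DDIT3, another ATF4 target, on the other strand, so its difference of 1.03 ± 0.0839 is less certain. PPP1R15A, the phosphatase subunit that restarts translation, was the exception among ATF4 targets, rising from 12.6, 13.7 and 15.9 FPKM to 152, 161 and 148 FPKM in SU-DHL-8 and from 47.8, 43.0 and 39.5 FPKM to 169, 166 and 153 FPKM in Farage. The treated ranges of the lines overlapped while the controls were far apart, and the difference was -1.48 ± 0.122.

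Genes of ER folding and export rose in both lines and further in SU-DHL-8, the reverse of the ATF4 list. Of 18 ER chaperones and folding enzymes, 16 rose in each line (background 25.1% in SU-DHL-8 and 21.9% in Farage). The difference was called for 12, 11 of them more upward in SU-DHL-8 (background 17.6%). Of 29 genes of ER-associated degradation and translocation, 25 rose in SU-DHL-8 and 18 in Farage, and 25 were called more upward in SU-DHL-8, with the same backgrounds. The median responses were 1.28 and 0.82 for the first list and 0.81 and 0.23 for the second. In TPM the second count was 17, and under the other rescalings 25 and 26. HYOU1, a large ER chaperone, went from 23.5, 21.8 and 24.8 FPKM to 165, 162 and 159 FPKM in SU-DHL-8 and from 45.1, 40.4 and 40.8 FPKM to 135, 130 and 120 FPKM in Farage. SU-DHL-8 was the lower line before and the higher after treatment, with a difference of -1.16 ± 0.0843 (limma, adjusted p = 4.3e-06). XBP1, the transcription factor of this response, went the other way: it rose from 31.6, 33.5 and 30.3 FPKM to 127, 126 and 124 FPKM in SU-DHL-8 and from 8.63, 7.99 and 7.81 FPKM to 50.8, 51.4 and 48.7 FPKM in Farage, a difference of 0.54 ± 0.0641.

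Members of the degradation and translocation list that rose in SU-DHL-8 and fell in Farage were SEC61B, a subunit of the translocation channel, SEC62, a channel partner, and UBE2J1, a ubiquitin-conjugating enzyme of ER degradation. SEC61B went from 59.0, 51.3 and 56.2 FPKM to 80.1, 67.7 and 75.0 FPKM in SU-DHL-8 and from 218, 204 and 232 FPKM to 124, 121 and 114 FPKM in Farage. It was opposite in each of the 20 alternatives, whereas SEC62 was so in 12 and UBE2J1 in 14, each with a response of -0.18 in Farage. SEC61A1, the pore subunit, rose in both lines, by 1.67 ± 0.0568 and 0.63 ± 0.0568. Among folding enzymes ERO1A, the ER oxidase, went from 7.59, 8.11 and 7.56 FPKM to 5.56, 5.26 and 6.84 FPKM in SU-DHL-8 and from 18.2, 19.2 and 19.3 FPKM to 22.3, 24.6 and 26.4 FPKM in Farage, the 1 opposite gene of its list.

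**Figure D5:**
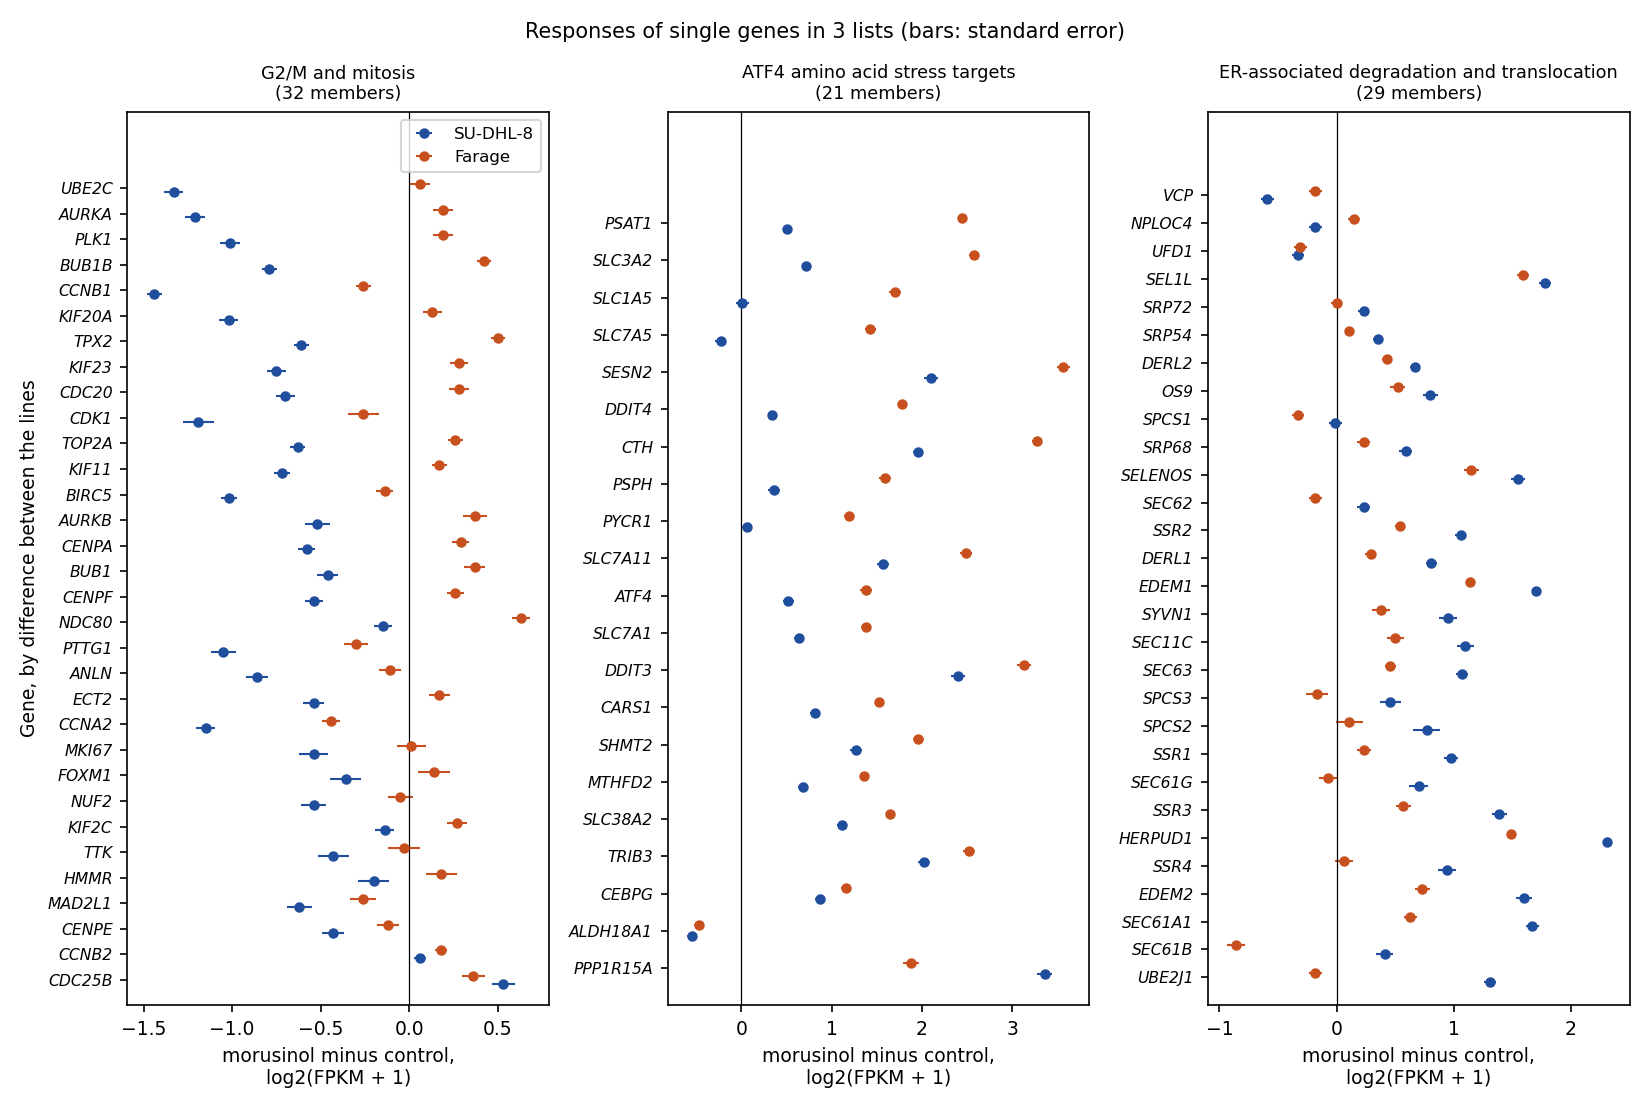
Response in SU-DHL-8 and Farage (horizontal axes, morusinol minus control on log2(FPKM + 1), bars for the standard error) of each gene of the G2/M, ATF4 and ER degradation lists, ordered by the difference between the lines. Farage lies to the right in 31 of 32 mitotic genes and 20 of 21 ATF4 targets and to the left in 26 of 29 ER genes, and the 14 opposite mitotic genes have their responses on either side of 0.

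HSPA5, the ER chaperone BiP, showed the same pattern and has a promoter with the ER stress response element. It went from 71.9, 73.1 and 74.2 FPKM to 376, 373 and 375 FPKM in SU-DHL-8 and from 118, 108 and 111 FPKM to 282, 287 and 280 FPKM in Farage, a difference of -1.02 ± 0.0490 (limma, adjusted p = 3.3e-07). The lines exchanged their order, as for HYOU1. The element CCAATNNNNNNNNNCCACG, which holds a CCAAT box, was searched on both strands of the same 300-base windows. It was in 4 of 16 windows of ER chaperone genes (25.0%; CALR, CANX, HSP90B1 and HSPA5) and in 22 of 27305 windows overall (0.0806%). The ATF4 composite site TGATGNAA was in 3 of 17 windows of the ATF4 list (17.6%; CARS1, SLC3A2 and SLC7A1) and in 3.67% of all windows. The 200 bases before the start of HSPA5 on the minus strand (RefSeq, GRCh38.p14, chr9:125241344-125241543) are shown with the element, 66 to 48 bases before the start, in capitals.
HSPA5: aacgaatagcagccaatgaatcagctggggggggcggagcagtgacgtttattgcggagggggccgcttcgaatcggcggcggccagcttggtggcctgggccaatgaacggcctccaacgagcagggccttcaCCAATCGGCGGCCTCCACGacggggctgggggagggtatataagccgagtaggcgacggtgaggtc

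Cytosolic heat shock genes fell in both lines and further in SU-DHL-8. Of 29 listed, 27 fell and none rose in SU-DHL-8, and 23 fell and 4 rose in Farage. Called differences numbered 18, all more upward in Farage (background 17.3%). HSP90AA1, the inducible HSP90, went from 682, 715 and 657 FPKM to 188, 199 and 184 FPKM in SU-DHL-8 and from 445, 453 and 454 FPKM to 197, 202 and 204 FPKM in Farage. The treated levels of the lines were close although the controls were not, with a difference of 0.68 ± 0.0560. HSPA1B, given earlier, and HSPA4L, an HSP110 chaperone, were the opposite genes of this list, with differences of 1.48 and 0.79. Glycolysis showed the same order: 15 of 19 genes fell in SU-DHL-8 and 14 in Farage. There 13 differences were more upward in Farage (background 17.3%) and 1 in SU-DHL-8. LDHA, lactate dehydrogenase, fell from 245, 257 and 244 FPKM to 57.7, 57.0 and 56.0 FPKM in SU-DHL-8 and from 173, 166 and 181 FPKM to 59.6, 60.0 and 58.4 FPKM in Farage. Its treated levels lay within a few FPKM of each other, and the difference of 0.58 ± 0.0523 came with unequal controls.

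Cholesterol synthesis fell in both lines but split by gene. Of 14 listed genes, 13 fell in SU-DHL-8 and 14 in Farage. Differences were more upward in SU-DHL-8 for 7 (background 17.6%) and in Farage for 3 (background 17.3%). HMGCS1, the entry enzyme of the pathway, fell from 16.1, 17.0 and 14.4 FPKM to 5.24, 5.81 and 5.43 FPKM in SU-DHL-8 and from 51.9, 54.2 and 56.8 FPKM to 10.3, 10.2 and 11.6 FPKM in Farage, a difference of -0.87 ± 0.0972. FDPS, which makes farnesyl diphosphate, fell further in Farage by -1.22 ± 0.0999.

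Among genes that moved the same way by different sizes, PLEK had the largest difference. PLEK encodes pleckstrin, a substrate of protein kinase C in blood cells, and went from 5.77, 5.02 and 4.81 FPKM to 84.8, 82.1 and 84.4 FPKM in SU-DHL-8 and from 295, 281 and 301 FPKM to 411, 410 and 396 FPKM in Farage. The Farage level was far above throughout, and the difference was -3.31 ± 0.0750 (limma, adjusted p = 9.0e-09). RELB, a subunit of NF-kappaB, rose by 2.22 in SU-DHL-8 and 0.97 in Farage, and NFKBIA, an inhibitor of NF-kappaB, by 1.30 and 0.42. GTPBP2 differed by -1.33 and RNF185, a ubiquitin ligase of the ER, by -1.26. CCR7, the chemokine receptor that guides B cells in lymph nodes, rose from 22.1, 20.5 and 22.2 FPKM to 118, 109 and 106 FPKM in Farage and from 10.1, 10.3 and 10.6 FPKM to 15.1, 11.4 and 14.7 FPKM in SU-DHL-8.

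Among genes called with the same sign and a called difference, 452 fell further in SU-DHL-8 (7.77%, against 2.95% of all tested genes) and 152 fell further in Farage (2.61%, background 1.07%). Rises were larger in SU-DHL-8 for 224 (3.85%, background 2.92%) and larger in Farage for 194 (3.33%, background 1.88%). Over all tested genes, falls and rises larger in SU-DHL-8 were about equally many (518 and 513). The order of these classes was thus seen at this control level, which leaves out genes that rise from a low control. RGS19, which switches off G protein signals, fell from 116, 105 and 111 FPKM to 10.9, 9.61 and 11 FPKM in SU-DHL-8 and from 12.8, 9.71 and 11.4 FPKM to 9, 6.63 and 5.43 FPKM in Farage. Its SU-DHL-8 libraries came down to about the untreated Farage level, for a difference of 2.64 ± 0.204. SAMD1, a reader of CpG islands, differed by 2.52 ± 0.134, GPER1, a G protein-coupled oestrogen receptor, by 2.04, PPP1R18 by 1.81 and LYL1, a blood cell transcription factor, by 1.71. Falls larger in Farage included C4orf3 (-1.22), DBI, the acyl-CoA binding protein (-1.05), and SNORA3B inside RPL27A (-1.04 ± 0.355), which kept this class in only 3 of 20 alternatives.

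In 1304 genes a called difference went with a response in 1 line and an interval inside the bound in the other: 324 rose (5.57%, background 4.65%) and 184 fell (3.16%, background 3.16%) in Farage, and 298 rose (5.12%, background 5.88%) and 498 fell (8.56%, background 4.43%) in SU-DHL-8. Over all tested genes the SU-DHL-8 order was the reverse, with 1034 up and 779 down. PIM2, a survival kinase, rose in Farage from 41.5, 35.8 and 37.7 FPKM to 156, 158 and 135 FPKM, against 14.2, 14.1 and 14.8 FPKM and 16.1, 14.6 and 15.9 FPKM in SU-DHL-8. NAMPT, which salvages NAD, rose in Farage from 11.8, 12.9 and 12.3 FPKM to 41.1, 40.7 and 45.6 FPKM, against 8.18, 8.82 and 8.06 FPKM and 8.37, 8.72 and 9.06 FPKM in SU-DHL-8. The treated and control ranges of SU-DHL-8 overlapped for both genes. RHBDD2 and ECI1, an enzyme of fatty acid oxidation, had differences of 1.71 and 1.20 of this kind.

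IDH1, cytosolic isocitrate dehydrogenase, rose in SU-DHL-8 from 11.1, 12.6 and 11.2 FPKM to 52.2, 47.6 and 49.4 FPKM, while Farage stayed at 18.9, 17.7 and 19.6 FPKM against 18.0, 16.6 and 17.5 FPKM. DNAJC10, an ER reductase, rose there from 7.51, 8.25 and 6.76 FPKM to 27.7, 28.5 and 29.4 FPKM, while Farage had 16.9, 18.5 and 17.8 FPKM against 18.1, 18.6 and 20.2 FPKM. Both were lower in SU-DHL-8 before and higher after treatment, with differences of -2.11 ± 0.0834 and -1.71 ± 0.0935. STAT2, a transcription factor of interferon signalling, differed by -1.55, PEA15, a regulator of ERK and death receptors, by -1.55 and REXO2, a mitochondrial nuclease, by -1.74. Of 10 listed interferon-stimulated genes, 4 rose (background 25.1%) and 4 fell (21.6%) in SU-DHL-8, and 1 rose (21.9%) and 5 fell (21.2%) in Farage.

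MKNK2, a kinase of the cap-binding factor eIF4E, fell in SU-DHL-8 from 45.3, 43.2 and 46.3 FPKM to 8.34, 7.09 and 8.38 FPKM, while Farage had 155, 139 and 143 FPKM against 147, 140 and 129 FPKM. Its difference of 2.29 ± 0.0985 was the largest among the genes that changed in 1 line. DTX3L, a ubiquitin ligase that overlaps its partner PARP9, differed by 1.73 and MEX3D, an RNA-binding protein, by 1.85. RPS26, a ribosomal protein of the small subunit, fell in Farage from 83.5, 80.7 and 83.6 FPKM to 39.1, 31.0 and 31.7 FPKM, against 349, 339 and 339 FPKM and 357, 311 and 341 FPKM in SU-DHL-8. The fall in Farage was -1.26 ± 0.0793, beside -0.41 for RPL27, the most downward of the 50 listed cytosolic ribosomal proteins. DTX1, a Notch regulator, differed by -1.22, TPM4, a tropomyosin, by -1.16, and GAS5-AS1, which overlaps GAS5, by -1.10. TNFRSF1B, a receptor of tumour necrosis factor, differed by -1.15 but kept this class in only 10 of 20 alternatives.

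The kinds of genes in each class, which the sorting did not use, were as follows. Protein-coding genes were 91.5% of the 5820, 300 of the 303 that rose in Farage and fell in SU-DHL-8 and 123 of the 139 that did the reverse. Small RNAs were 171 of the 5820, 4 of those 139 and none of those 303. A gene on the other strand overlapped 33.6% of the 5820 genes, 36.3% of the 303 and 31.7% of the 139. Median exon length was 4516 bases in all, 4923 in the 303 and 4615 in the 139. The median GC content of the promoter window was 67.7% in the 303, 64.0% in the genes that rose alike and 64.0% in those that fell alike. Neither GC nor motif shares are given for all 5820 genes or for the 139, because a window was found for only 78.2% and 76.3% of them.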

How the data were processed

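RNA from the 4 groups was sequenced with a low-input mRNA kit, and the authors deposited 1 table of FPKM for all 12 libraries. Aligner, annotation and strand setting are stated neither in the labels nor in the table's header. The submitters' processing notes name only the mouse builds GRCm38 and mm10, although the gene identifiers are human. No counts were used, so depth is known only relatively, from the spacing of low values. Positions are from GENCODE 29, which held 58297 of the 61466 identifiers (94.8%).

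The deposited FPKM were converted here to log2(FPKM + 1) after keeping 17574 genes with at least 1 FPKM in at least 3 libraries. Each group was fitted with its own mean in limma 3.58.1 (R 4.3.3, trended and robust prior), without pairing, and p-values were adjusted by Benjamini-Hochberg over all genes tested, with a threshold of 0.05. Deviations from the group mean correlated by -0.07 to 0.09 between same-numbered libraries of a line and by -0.18 to 0.22 between differently numbered ones. With 3 libraries per group this cannot show whether libraries were handled in pairs. Classes were set in Python 3.11.15 with pandas 2.3.3 and numpy 2.4.6, and figures drawn with matplotlib 3.10.9.

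Alternatives were other pseudocounts, filters, 3 rescalings (TPM, protein-coding total, median ratio), an untrended prior, a replicate block and leaving out each library. Named genes had no overlap between treated and control libraries in each line in which their class calls a change. They were the 12 with the largest opposite movement in each direction, the 8 rises and 8 falls most alike, the 5 largest differences in each other class, and from each gene list up to 5 with the smallest p for the difference and all that moved in opposite ways. RPL27 was named after its values were seen. The genes and lists were chosen with earlier results of these data known.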

Additional observations from a re-analysis of the deposited data

Results flagged for a closer look

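The 2 lines stand as separate groups under 1 contrast, and the test of the difference itself passed for 2837 of the 5820 genes (limma, adjusted p under 0.05), of which 442 moved in opposite ways. The 24 named genes with the largest opposite movement have a called difference by the definition of their class, so their calls add nothing to the count. With a rise in Farage and a fall in SU-DHL-8 these were CDK2 (2.22), FMNL1 (2.20), NAB2 (2.15), STS (2.06), ATF5 (1.84), LRRC42 (1.64), CDCA2 (1.53), HSPA1B (1.48), MAP4K2 (1.35), ZNFX1 (1.34), MAP1S (1.31) and CNP (1.28). In the reverse direction they were VNN2 (-2.26), SEPHS2 (-2.00), CD38 (-1.96), RUBCNL (-1.60), FCRLA (-1.60), KLHL42 (-1.27), PI4K2B (-1.25), SNORA80B (-1.24), BTG2 (-1.20), SNORD3C (-1.13), C11orf24 (-1.10) and COA5 (-1.05). Each value is the response in Farage minus that in SU-DHL-8 on the log2(FPKM + 1) scale. Groups of 3 are too small for a test of single outlying libraries, so none was made.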

How the results depend on the processing

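The counts follow the level asked of the controls. With no such level, 6126 genes differed between the lines, 748 moved in opposite ways, 7567 changed in Farage, 8216 in SU-DHL-8, 1549 moved the same way by different sizes and 3186 in 1 line. With at least 10 FPKM the counts were 1810 for the difference, 280 opposite, 2344 in Farage, 2673 in SU-DHL-8 and 783 in 1 line. With the replicate number as a block, 2476 genes differed and 375 moved in opposite ways, and no count moved by over 1.5 times. Leaving out 1 library gave 2559 to 2793 differences, 366 to 427 opposite and 1350 to 1488 alike. Of 6060 comparisons of the 303 named differences with 20 alternatives, 5946 kept their sign and side of the threshold. The named genes were mostly chosen for large responses, large differences or a small p, so most calls were likely to hold. Only 1 comparison reversed: COTL1 went from 0.01 to -0.33 with a pseudocount of 5 (limma, adjusted p = 0.00429). TPM moved the most, with 19 differences no longer called. In each of the 20 alternatives 175 of the 442 genes stayed opposite, 721 of the 1547 alike and 1940 of the 2837 called for the difference. FPKM without counts gives no interval for low values.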
